A study of Mus musculus with 10 samples.

Results

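Endothelial cells form the inner lining of blood and lymphatic vessels, and in the lung they make up the dense capillary bed against which air and blood exchange gas. They hold together through junctional adhesion molecules and sense flow and growth factors through their own set of receptors. ETS and SOX family transcription factors keep their gene programme active. The genes described here are 41 listed genes known as markers of this cell type. They were chosen by name, and capillary, arterial and lymphatic markers were kept apart from general ones. Array probes were paired with genes through the accession on the array, and where a gene had more than 1 probe, the probe with the highest mean over the 10 arrays stood for it. Of the 41 genes, 40 had a probe, out of 19096 genes with a probe on the whole array. Of these, 39 were bright enough to be tested, out of 15596 genes in all. Tal1, a transcription factor shared with blood stem cells, was paired with no probe.

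The samples were 5 whole lungs of wild-type (WT) mice, which carried the floxed Lkb1 allele without Cre (Lkb1f/f), and 5 whole lung tumours, squamous cell carcinomas (SCC), of CCSPiCreLkb1f/f mice. Per the labels all were 13 months old, of the strain B6.129, and untreated. Both groups therefore carried floxed Lkb1, and the SCC mice also carried an improved Cre recombinase driven by the promoter of the club cell secretory protein, an airway epithelial gene. Endothelium is not the cell type that this promoter targets. Total RNA had been labelled with Cy3 and measured in 1 colour on Agilent arrays that cover the mouse genome, 1 array per sample, and the question was how lung and tumour differ in gene expression. The labels do not say whether every sample came from a separate animal, so p-values measure the spread between these samples only.

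Levels are log2 normalised intensities, which compare a probe between arrays but not 1 probe with another, and differences are SCC minus WT in log2 units. A gene was called lower or higher where limma gave a Benjamini-Hochberg adjusted p below 0.05 over all 30374 tested probes and the difference was at least 2-fold. Of all tested probes, 22.9% were called, 13.0% lower and 9.92% higher in SCC. On 9 arrays 71.0% to 74.3% of probes were well above background, and on the array of SCC replicate 5 this was 90.2%. SCC replicate 2 stood nearer to WT than the other 4 tumours, with a correlation across probes of up to 0.946 with WT arrays against up to 0.905 for the other tumours. The squamous markers Krt5, Krt14, Krt6a, Trp63 and Dsg3 were all called higher in SCC, although Krt6a and Dsg3 were not well above background on any WT array, so that their folds are not given. Their mean level was 11.59 in SCC replicate 2, at least 14.63 in the other tumours, and at most 4.89 in WT. The arrays lay on 3 slides, with WT replicates 1 to 4 on the first, WT replicate 5 and SCC replicates 1 to 3 on the second, and SCC replicates 4 and 5 on the third.

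Endothelial genes were lower in SCC in every functional group. Of the 39 tested, 35 (89.7%) were called lower and 0 higher, 0 were higher at an unadjusted p below 0.05 by limma, and the methods' analysis of variance, equal to a t-test between 2 groups, also called 0 higher. The median difference was -2.07, that is 4.21-fold lower, while the median over all tested probes was -0.09. By the adjusted p alone 37 members were lower, as were 26.6% of all tested probes. The WT and SCC values did not overlap for 37 members, all with SCC below WT, and 21.0% of all tested probes separated in that way. The 4 genes not called were Emcn, Fli1, Cyyr1 and Nos3. Because these are bulk samples, fewer endothelial cells and less RNA per endothelial cell cannot be told apart.

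Tumours differed among themselves in how far the genes fell. Over the 38 genes with a value on every array, the median distance from the WT mean was -2.66 in SCC replicate 3, -2.29 in replicate 5, -2.21 in replicate 4, -2.06 in replicate 1 and -1.50 in replicate 2. The WT arrays lay between -0.07 and 0.06. SCC replicate 2 was the highest tumour for 32 of the 39 members, as it was for 69.9% of all probes called lower and 38.6% of all tested probes. Without SCC replicate 2 the median difference was -2.27 with 35 genes called lower, as in the fit of all arrays. Without SCC replicate 5, or without both, the same 35 genes were called lower, and Cyyr1 was added to them with no remaining tumour well above background. Within the second slide, which holds 1 WT and 3 SCC arrays, 38 of 39 differences were below 0, with a median of -2.03. Slide as a fixed block in limma leaves this same contrast, with WT replicate 5 as the only WT array, and 28 members were called lower and 0 higher in it.

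**Figure D1:**
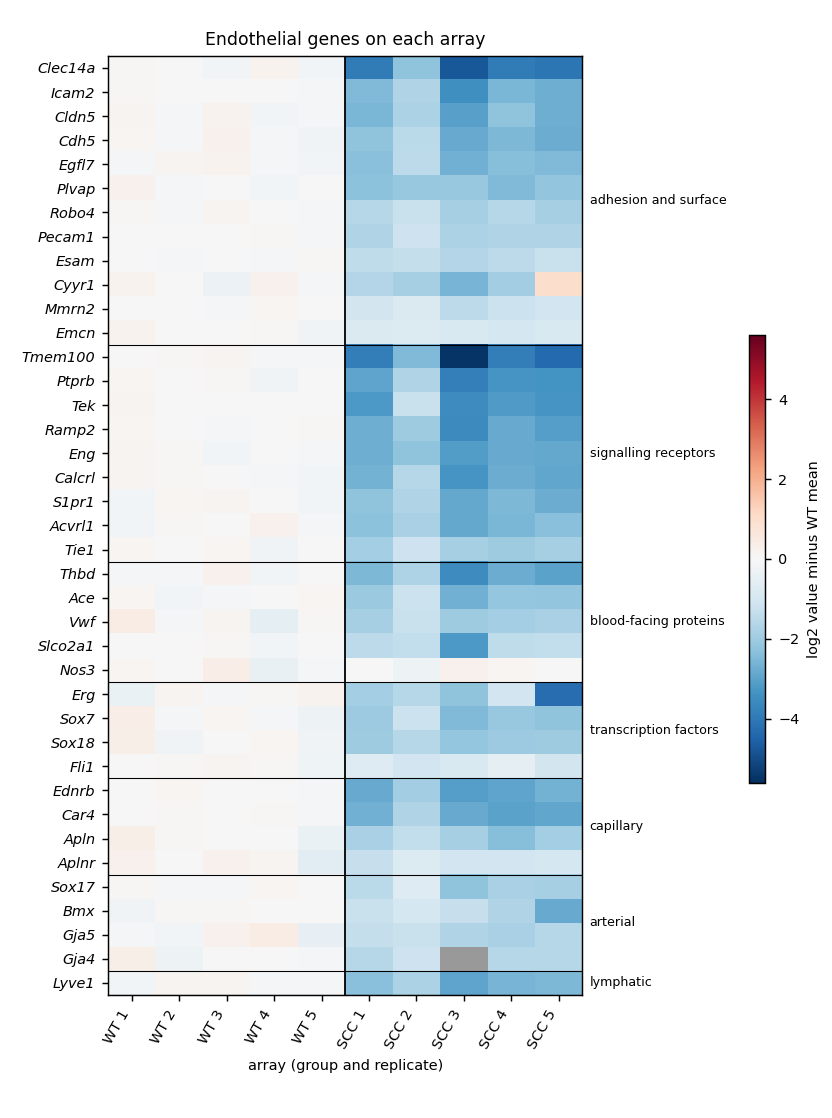
Each row is a tested endothelial gene and each column an array, and the colour gives the log2 value minus the WT mean of that gene (blue lower, red higher, grey no value). SCC columns are blue in nearly every row, paler in SCC replicate 2 (median -1.50) than in SCC replicate 3 (median -2.66), with Nos3 near white and Cyyr1 red only in SCC replicate 5.

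Promoter sequence of RefSeq (assembly GRCm38.p6) was listed for 21 of the 41 genes, in 28 windows of 250 bases before a transcription start. In all, 13 short motifs were counted on both strands. CAGGAA, a form of the ETS core GGAA that reads TTCCTG on the opposite strand, occurred in 13 of the 28 windows (46.4%, 12 genes) and in 25.7% of all 32851 windows of the same length. The longer ACAGGAAG, which holds CAGGAA, occurred in 14.3% of the member windows and 2.90% of all windows. The core GGAA itself, contained in both, was in 89.3% and 93.4%, GGAAGT in 14.3% and 19.7%, CCGGAA in 3.57% and 12%, and ACCGGAAGT, which holds the other ETS forms CCGGAA and GGAAGT, in 0 and 0.804%. SOX-like AACAATG was in 7.14% and 3.29%, ATTGTT, which overlaps it on the other strand, in 14.3% and 9.42%, and CACCC, a KLF-like motif, in 64.3% and 52.0%. The remaining counts were 14.3% and 12.4% for TATAAA, 7.14% and 9.99% for AGATAA, of the GATA factors, 0 and 4.46% for TGACTCA, of the AP-1 factors, and 10.7% and 12.6% for CATTCC, of the TEAD factors. These are letter matches in a list of genes chosen by name and carry no test.

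The windows of 4 genes are shown, picked among those that hold the motif, for 3 genes called lower (Clec14a, Tek, Calcrl) and for Emcn, which was not called. The windows of Eng, Ednrb and Car4, which differed by -2.77, -2.69 and -2.62, held no match. Capitals mark CAGGAA or TTCCTG. The Clec14a window is at chr12:58269259-58269508 (minus strand), that of Tek at chr4:94739039-94739288 (plus strand), that of Calcrl at chr2:84425267-84425516 (minus strand) and that of Emcn at chr3:137340828-137341077 (plus strand).
Clec14a: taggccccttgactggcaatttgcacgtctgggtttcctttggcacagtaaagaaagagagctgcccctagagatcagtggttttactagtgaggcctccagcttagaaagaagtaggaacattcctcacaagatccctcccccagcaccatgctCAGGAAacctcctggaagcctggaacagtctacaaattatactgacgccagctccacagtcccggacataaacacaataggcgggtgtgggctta
Tek: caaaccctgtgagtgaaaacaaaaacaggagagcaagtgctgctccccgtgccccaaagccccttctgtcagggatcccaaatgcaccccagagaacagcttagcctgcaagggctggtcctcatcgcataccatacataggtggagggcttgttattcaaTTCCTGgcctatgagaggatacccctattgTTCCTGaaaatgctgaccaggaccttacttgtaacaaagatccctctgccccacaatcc
Calcrl: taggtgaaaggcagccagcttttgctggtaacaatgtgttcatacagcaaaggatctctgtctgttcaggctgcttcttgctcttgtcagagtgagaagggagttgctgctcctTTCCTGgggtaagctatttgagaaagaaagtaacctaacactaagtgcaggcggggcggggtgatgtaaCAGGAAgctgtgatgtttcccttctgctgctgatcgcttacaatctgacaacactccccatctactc
Emcn: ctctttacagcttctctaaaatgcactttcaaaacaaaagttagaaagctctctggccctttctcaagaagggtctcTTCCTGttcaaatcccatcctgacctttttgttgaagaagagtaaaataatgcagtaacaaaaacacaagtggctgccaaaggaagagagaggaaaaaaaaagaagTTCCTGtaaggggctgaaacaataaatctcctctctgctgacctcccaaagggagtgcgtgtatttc
Calcrl, Tek and Emcn each held the motif in 2 places and Clec14a in 1, so that the motif was present both in genes that differed by -3.77, -2.89 and -2.65 and in Emcn at -0.84.

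The genes encoding junction and surface proteins included 10 of 12 called lower, with a median of -1.93. Pecam1, an adhesion molecule of endothelial junctions, read 11.36, 11.42, 11.42, 11.43 and 11.28 in WT replicates 1 to 5 and 9.69, 10.22, 9.63, 9.69 and 9.68 in SCC replicates 1 to 5. SCC replicate 2 was the highest tumour and still lay below every WT array. The difference was -1.60 ± 0.12 (SE, adjusted p = 1.1e-05 by limma), a 3.03-fold lower level. Cdh5, the VE-cadherin that holds endothelial junctions together, read 15.19, 15.05, 15.33, 15.03 and 14.90 in WT and 12.87, 13.59, 12.30, 12.60 and 12.33 in SCC. All tumours were below all lungs, by -2.37 ± 0.23 (SE, adjusted p = 4.4e-05 by limma), or 5.15-fold.

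Clec14a, a C-type lectin domain receptor of the endothelial surface, showed the largest difference of this group. Its values were 14.38, 14.35, 14.16, 14.52 and 14.16 in WT and 10.39, 12.08, 9.58, 10.41 and 10.25 in SCC. SCC replicate 2 stood above the other tumours and SCC replicate 3 was lowest, and the groups did not overlap. The difference was -3.77 ± 0.38 (SE, adjusted p = 5.2e-05 by limma), a 13.7-fold lower level. Mmrn2, a matrix glycoprotein that binds Clec14a, differed by -1.11.

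Emcn, a sialomucin of the luminal surface, had the smallest difference of the group. It read 13.94, 13.71, 13.71, 13.80 and 13.54 in WT and 12.95, 12.98, 12.90, 12.74 and 12.90 in SCC. All tumours lay below all lungs within a narrow range, and SCC replicate 2 was close to the other tumours. The difference of -0.84 ± 0.10 (SE) passed the adjusted p (9.2e-05 by limma) but not the 2-fold limit. Cyyr1, a membrane protein, read 6.37, 6.16, 5.84, 6.43 and 6.12 in WT and 4.55, 4.32, 3.56, 4.25 and 7.15 in SCC. Only SCC replicate 5, the array with the high share of probes above background, was well above background for Cyyr1 among the tumours, and it exceeded every WT array. The Cyyr1 difference was -1.42 with an adjusted p of 0.063 by limma, and it was called without SCC replicate 5, where no remaining tumour was well above background.

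The other surface genes fell with no overlap between groups. Differences were -2.57 for Icam2, an adhesion ligand for leukocytes, and -2.47 for Cldn5, the claudin of endothelial tight junctions. Egfl7, a secreted matrix protein, differed by -2.28, and Plvap, which forms the diaphragms of fenestrae and caveolae, by -2.24. The endothelial roundabout receptor Robo4 differed by -1.62 and the junction protein Esam by -1.42.

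**Figure D2:**
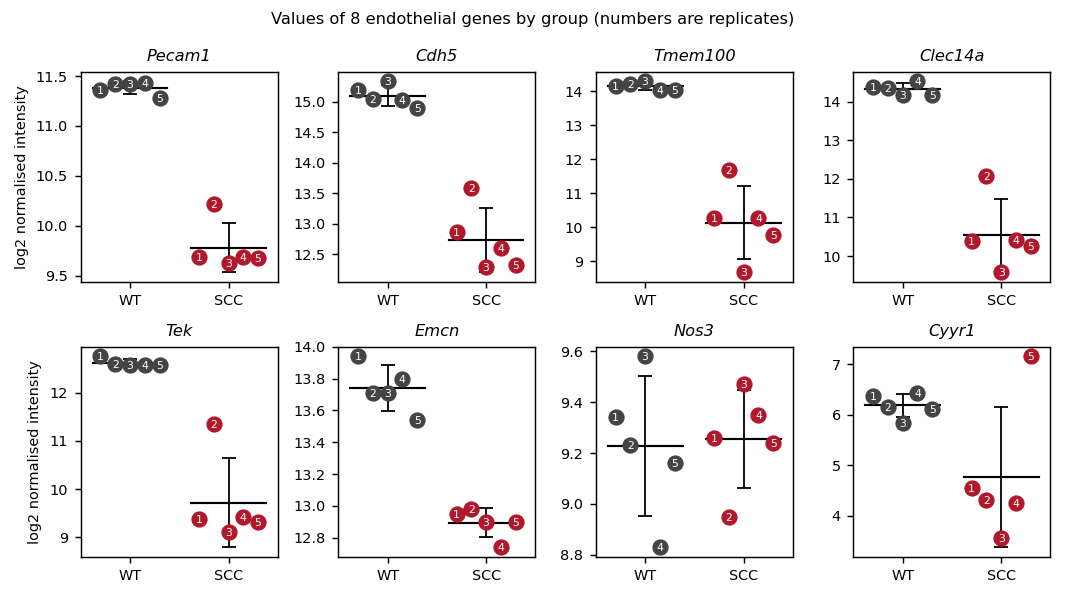
Log2 normalised intensity of 8 endothelial genes in WT (grey) and SCC (red), 5 arrays each, with replicate numbers in the points, the mean as a line and the SD as a bar; each panel has its own axis, which does not start at 0. SCC replicate 2 is the highest tumour for Pecam1, Cdh5, Tmem100, Clec14a and Tek, Nos3 overlaps fully, and Cyyr1 is high only in SCC replicate 5.

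All 9 genes of receptor signalling were called lower, with a median of -2.77, the lowest of the groups with more than 1 tested gene. Tmem100, a membrane protein of the endothelial BMP pathway, showed the largest difference of all members. It read 14.15, 14.21, 14.29, 14.04 and 14.05 in WT and 10.26, 11.68, 8.67, 10.26 and 9.78 in SCC. The tumours spread over about 3 log2 units, with SCC replicate 2 highest and SCC replicate 3 lowest, and all lay below WT. The difference was -4.02 ± 0.45 (SE, adjusted p = 8.2e-05 by limma), a 16.2-fold lower level. The receptor Acvrl1 and its co-receptor Eng, which act in the same pathway, differed by -2.37 and -2.77.

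Tek, the receptor of the angiopoietins, differed by -2.89, and the phosphatase that acts on it, Ptprb, by -3.03. Tie1, the partner receptor of Tek, had the smallest difference of the receptors. Its levels were 12.30, 12.22, 12.30, 11.98 and 12.17 in WT and 10.27, 11.02, 10.32, 10.21 and 10.32 in SCC. SCC replicate 2 lay apart from the other tumours, which were within about 0.1 of each other, and no tumour reached WT. The difference was -1.77 ± 0.16 (SE, adjusted p = 2.6e-05 by limma), or 3.40-fold. Calcrl and Ramp2, which together form the adrenomedullin receptor, differed by -2.65 and -2.85, and S1pr1, the receptor of sphingosine 1-phosphate that steadies junctions, by -2.42. Tek no longer passed when slide was a fixed block (adjusted p = 0.0547 by limma), with a difference of -2.62.

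Of the proteins that face the blood, 4 of 5 were called lower, with a median of -1.78. Vwf, which tethers platelets to an injured wall, read 16.44, 15.98, 16.18, 15.53 and 16.10 in WT and 14.18, 14.79, 14.04, 14.13 and 14.21 in SCC. The lungs spread more widely for Vwf than for the junction genes, and the lowest of them still exceeded the highest tumour, SCC replicate 2. The difference was -1.78 ± 0.19 (SE, adjusted p = 7.1e-05 by limma). Thbd, the thrombin receptor that turns on the anticoagulant protein C, read 15.84, 15.83, 16.15, 15.76 and 15.88 in WT and 13.38, 14.18, 12.39, 13.12 and 12.88 in SCC. The groups were far apart, by -2.70 ± 0.28 (SE, adjusted p = 6.1e-05 by limma). Ace, the angiotensin-converting enzyme, differed by -2.07, and the prostaglandin transporter Slco2a1 by -1.76. For Slco2a1, SCC replicate 3 read 11.96 and the other tumours 13.71 to 13.81, and when slide was a fixed block its difference was -2.04 with an adjusted p of 0.0699 by limma.

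Nos3, the endothelial nitric oxide synthase, was the exception. It read 9.34, 9.23, 9.58, 8.83 and 9.16 in WT and 9.26, 8.95, 9.47, 9.35 and 9.24 in SCC. The lowest value was a lung, WT replicate 4, and the groups overlapped throughout. The difference was 0.02 with a 95% confidence interval of -0.31 to 0.36 (adjusted p = 0.90 by limma, exact permutation p = 0.86, two-sided), so that a 2-fold change in either direction lay outside the interval. The Nos3 probe was well above background on all 10 arrays, and no second probe of the gene was on the array.

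Among the transcription factors, 3 of 4 tested genes were called lower, with a median of -1.99. Erg, an ETS factor, read 6.72, 7.24, 7.02, 7.17 and 7.27 in WT and 5.17, 5.50, 4.85, 6.01 and 2.81 in SCC. SCC replicate 5 was the lowest by about 2 log2 units. The Erg difference was -2.22 ± 0.51 (SE, adjusted p = 0.0054 by limma) and -1.70 without SCC replicate 5, and when slide was a fixed block it was -2.09 with an adjusted p of 0.194. With normexp background the Erg difference was -0.81, under the 2-fold limit. Fli1, a related ETS factor also used by blood cells, read 11.43, 11.45, 11.53, 11.45 and 11.14 in WT and 10.69, 10.33, 10.56, 10.84 and 10.36 in SCC. All tumours were below all lungs, and SCC replicate 2 was the lowest tumour here. The difference of -0.84 ± 0.12 (SE) passed the adjusted p (4.5e-04 by limma) but not the 2-fold limit, while a dimmer Fli1 probe was called lower at -1.04. Sox7 and Sox18, of the SOX family that shapes vessels, differed by -2.02 and -1.96.

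All 4 capillary markers were called lower, with a median of -2.24. Ednrb, the endothelin receptor of lung capillary cells, read 11.30, 11.43, 11.32, 11.35 and 11.21 in WT and 8.50, 9.39, 8.23, 8.36 and 8.69 in SCC. The highest tumour, SCC replicate 2, stayed below the lowest lung, with a difference of -2.69 ± 0.20 (SE, adjusted p = 9.8e-06 by limma). Car4, a carbonic anhydrase of the capillary surface, differed by -2.62. The peptide Apln and its receptor Aplnr, which mark different lung capillary cells, differed by -1.87 and -1.05. Aplnr read 11.82, 11.61, 11.83, 11.74 and 10.98 in WT and 10.31, 10.81, 10.51, 10.51 and 10.61 in SCC. WT replicate 5, the WT array that shares a slide with tumours, was the lowest lung for both genes. The Aplnr call (adjusted p = 9.1e-04 by limma) rested near the 2-fold limit. Within the second slide the Aplnr difference was -0.44, which is also its value when slide was a fixed block (adjusted p = 0.213 by limma).

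All 4 arterial markers were called lower, over a narrow range from -1.64 to -1.49. Sox17, a SOX factor of arterial identity, read 12.49, 12.36, 12.39, 12.55 and 12.41 in WT and 10.92, 11.72, 10.18, 10.63 and 10.56 in SCC. SCC replicate 2 was closest to WT, and the difference was -1.64 ± 0.24 (SE, adjusted p = 4.8e-04 by limma). Gja4, a gap junction connexin, read 13.53, 12.91, 13.19, 13.21 and 13.09 in WT and 11.59, 12.04, 11.59 and 11.57 in SCC replicates 1, 2, 4 and 5, since its spot was flagged on the array of SCC replicate 3. The fit used the 9 remaining arrays and gave -1.49 ± 0.15 (SE, adjusted p = 9.5e-05 by limma). Gja5, a second connexin, differed by -1.54 and the kinase Bmx by -1.60. When slide was a fixed block Sox17, Gja5 and Bmx no longer passed, with differences of -1.47, -0.98 and -1.21 and adjusted p-values of 0.0827, 0.0537 and 0.0815 by limma. With normexp background Bmx differed by -0.72, under the 2-fold limit.

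Of the lymphatic markers, only Lyve1 could be tested. This hyaluronan receptor, which some macrophages also carry, read 14.09, 14.40, 14.43, 14.19 and 14.17 in WT and 11.93, 12.47, 11.31, 11.65 and 11.72 in SCC. The groups did not overlap, and the difference was -2.44 ± 0.20 (SE, adjusted p = 1.4e-05 by limma). Prox1, the transcription factor that defines lymphatic endothelium, was well above background on 0 WT arrays and 1 SCC array and was not tested. Its brightest probe read between 2.55 and 3.88 in WT and between 3.33 and 4.46 in SCC.

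**Figure D3:**
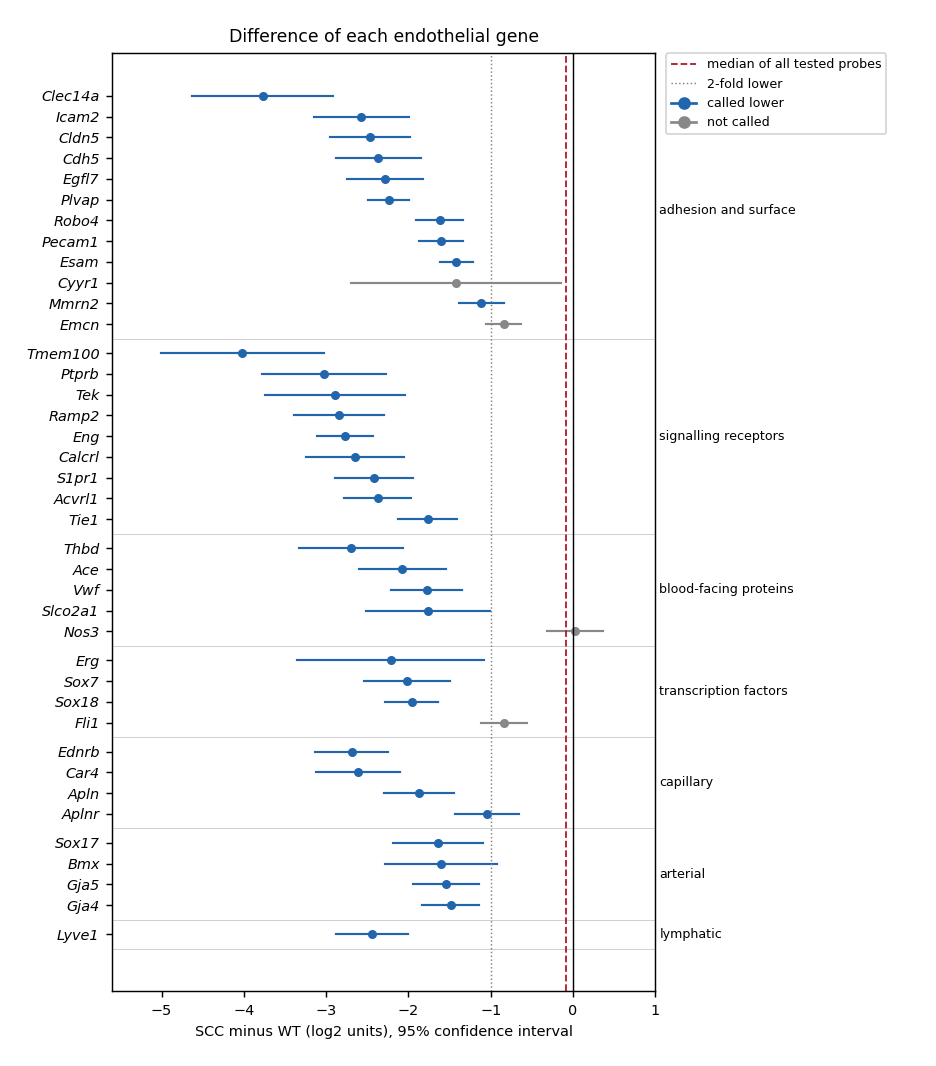
SCC minus WT difference of each tested endothelial gene in log2 units with its 95% confidence interval, grouped by role; blue genes were called lower and grey genes were not called. Intervals of 38 genes lie below 0, from Tmem100 at -4.02 to Emcn and Fli1 at -0.84, and that of Nos3 spans 0.

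Other probes of the same genes gave a further reading. There were 16 such probes for 14 genes, of which 14 were tested, with 11 called lower and 0 higher. The 3 not called were dim probes of Aplnr (-0.62), Sox17 (-0.95) and Gja5 (0.30, adjusted p = 0.66 by limma). The mean over all tested probes of a gene gave 33 members called lower and 0 higher, with Aplnr at -0.83 and Gja5 at -0.62 no longer called.

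Whether the members fell to a different degree was tested against 4 genes found in nearly all endothelial cells, Cdh5, Pecam1, Tie1 and Esam. Their mean on each array, which differed by -1.79 between groups, was subtracted from every probe before the fit. Of the 35 other members, 17 fell more than this reference, 5 fell less or did not fall, and 13 were not distinguished from it (adjusted p below 0.05 by limma over all tested probes). The 4 reference genes did not fall alike. Cdh5 lay -0.58 and Esam 0.37 from their shared mean (adjusted p = 0.0031 and 0.028 by limma), while Pecam1 (0.19) and Tie1 (0.02) were not distinguished from it. Plvap (-0.45) and Egfl7 (-0.50), counted as falling more, lay no further from the mean than Cdh5. Among all tested probes 2.13% fell below the reference and 86.5% lay above it.

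The 8 receptor signalling genes outside the reference all fell more than it did, a statement that held for Ptprb, Ramp2 and Tmem100 alone against Cdh5 by itself, and for these and Eng with slide as a fixed block. Tmem100 lay -2.23 ± 0.34 (SE) from the reference (adjusted p = 1.0e-04 by limma), Ptprb -1.24, Tek -1.10, Ramp2 -1.06 and Eng -0.98. Calcrl lay at -0.86, S1pr1 at -0.63 and Acvrl1 at -0.58. Outside the receptors, Clec14a was at -1.98 ± 0.28 (SE, adjusted p = 5.5e-05 by limma), Thbd at -0.91, Icam2 at -0.78, Cldn5 at -0.68, Egfl7 at -0.50 and Plvap at -0.45. The capillary genes Ednrb and Car4 were at -0.90 and -0.83, and Lyve1 at -0.65.

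The members that fell less than the reference were Emcn (0.95), Fli1 (0.95), Aplnr (0.74) and Mmrn2 (0.68), and Nos3, which did not fall, lay 1.81 above it. The 4 arterial genes were not distinguished from the reference, with distances of 0.15 to 0.25, but all 4 fell less than Cdh5 when Cdh5 alone was the reference. Bmx also fell less than the mean of the 4 reference genes with scaling to the 75th percentile (0.54) and without SCC replicate 5 (0.46), as did Gja5 without WT replicate 4 (0.37). Also not distinguished were Erg, Sox7, Sox18, Vwf, Ace, Slco2a1, Robo4, Apln and Cyyr1. Among these, Ace (-0.38) and Sox7 (-0.31) fell more than the reference without SCC replicate 2, and Robo4 (0.74) and Vwf (0.59) fell less than Cdh5 alone. The choice of reference mattered. Against Cdh5 alone, whose own difference was the largest of the 4 reference genes, 4 members fell more and 11 fell less, and with slide as a fixed block 7 fell more and 4 fell less. Clec14a, Ptprb, Ramp2 and Tmem100 fell more, and Emcn, Fli1, Aplnr and Nos3 less, in all 15 settings run.

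**Figure D4:**
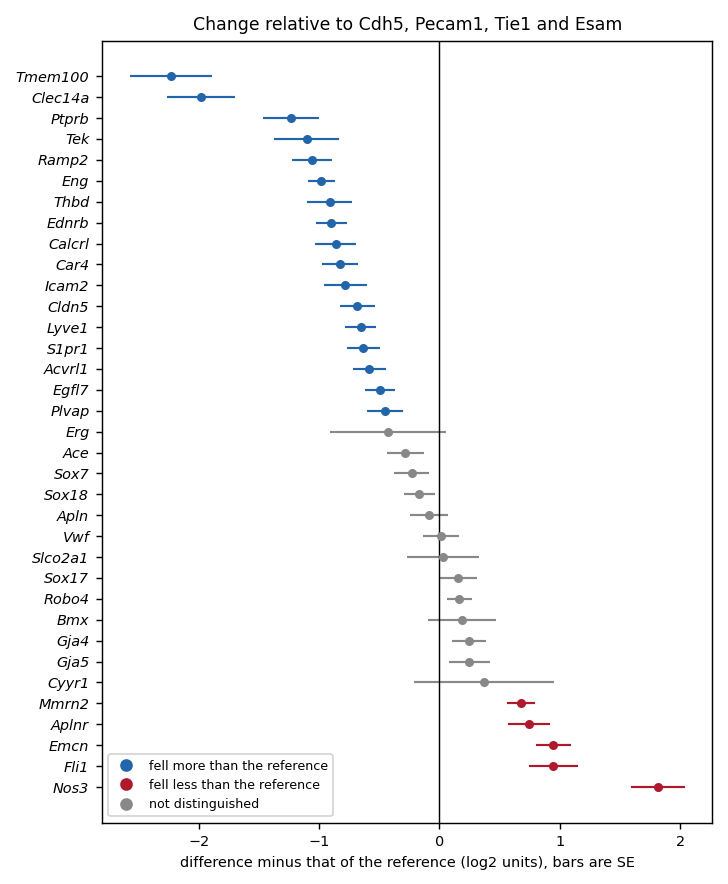
Difference of each of 35 endothelial genes minus the difference of the reference (Cdh5, Pecam1, Tie1 and Esam) in log2 units, with SE bars; blue genes fell more than the reference, red genes less, and grey genes were not distinguished. The scale runs from Tmem100 at -2.23 to Nos3 at 1.81, and the 4 arterial genes sit between 0.15 and 0.25, not distinguished from this reference.

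Of 50 other genes of vessel growth, signalling and identity, 48 were tested. Of these, 34 (70.8%) were called lower, 2 higher and 12 not called, against 13.0% lower and 9.92% higher among all tested probes. The 48 genes had a median difference of -1.59. The genes called lower include Gdf2, Edn3 and Hey2, which were well above background on 1, 2 and 3 tumour arrays and were tested because they were bright in WT. The 6 largest called differences were those of Gdf2, Tspan18, Foxf1, Gata2, Kdr and Adgrf5. Kdr, the main receptor of vascular endothelial growth factor, read 14.20, 14.23, 14.20, 14.26 and 14.02 in WT and 11.38, 12.14, 11.04, 11.32 and 11.22 in SCC. No tumour reached a lung, and SCC replicate 2 was again the highest tumour. The Kdr difference was -2.76 ± 0.19 (SE, adjusted p = 6.3e-06 by limma).

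Gata2, a transcription factor of blood and vessel cells, differed by -2.94, and Foxf1, a factor of lung capillary and stromal development, by -3.00. The tetraspanin Tspan18 differed by -3.15 over 9 arrays, since its spot was flagged on WT replicate 1, and the lung capillary receptor Adgrf5 by -2.46. Gdf2, the ligand of Acvrl1 and Eng, read 6.6, 6.82, 6.83, 7.48 and 8.02 in WT and 2.13, 2.88, 2.13, 2.40 and 7.43 in SCC. Among tumours its probe was well above background in SCC replicate 5 only, where it was as high as in the lungs. The fitted Gdf2 difference was -3.76 ± 0.95 (SE, adjusted p = 0.0090 by limma) and -4.77 without SCC replicate 5. Both set the lungs against tumours that mostly lay at background, so neither the size nor the place of Gdf2 in the order is exact.

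The vascular genes called higher were Ackr1 and Selp. Pgf also passed the adjusted p (0.0035 by limma) at 0.93, short of 2-fold, with every tumour above every lung. Ackr1, the chemokine-binding receptor of venular endothelium, read 6.30, 5.94, 6.03, 6.18 and 6.22 in WT and 8.42, 7.30, 8.73, 8.64 and 8.38 in SCC. Every tumour was above every lung, with SCC replicate 2 the lowest tumour, and the difference was 2.16 ± 0.25 (SE, adjusted p = 1.0e-04 by limma). Selp, the selectin that slows leukocytes and is also carried by platelets, read 7.96, 7.73, 7.02, 7.17 and 7.68 in WT and 8.54, 7.40, 9.01, 9.09 and 8.58 in SCC. Here SCC replicate 2 lay within the WT range, and the difference was 1.01 ± 0.32 (SE, adjusted p = 0.026 by limma). It was 1.29 without SCC replicate 2, 0.997 without SCC replicate 5, which is under the 2-fold limit, and 0.64 within the second slide.

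**Figure D5:**
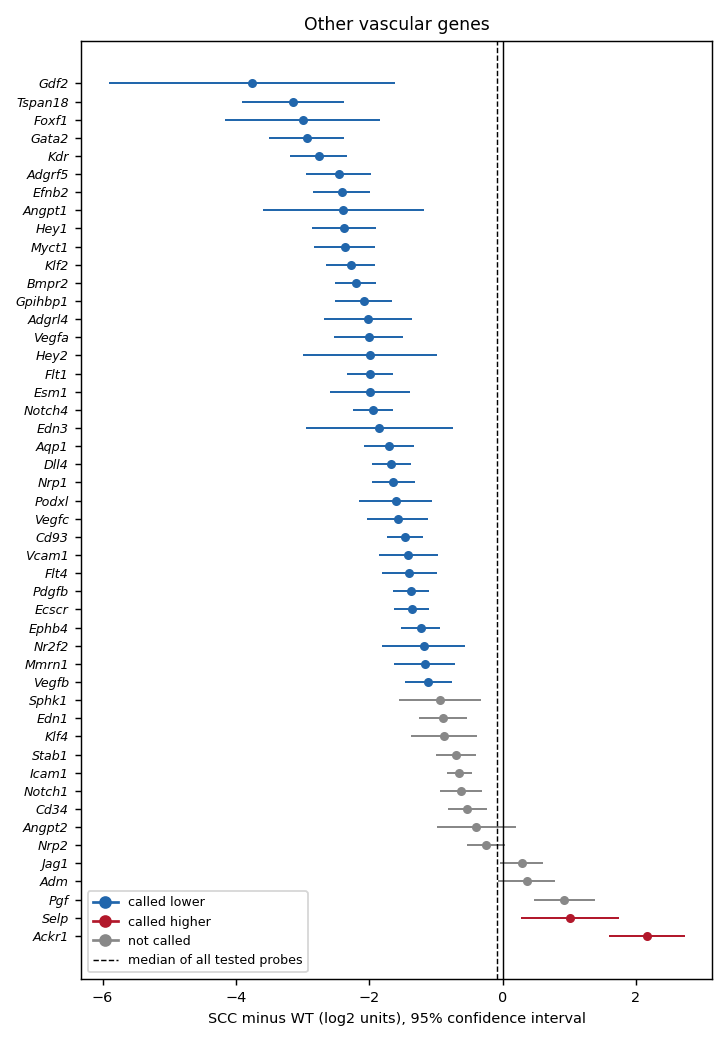
SCC minus WT difference in log2 units with its 95% confidence interval for 48 other vascular genes; blue genes were called lower, red higher and grey not called. The 34 blue genes start with Gdf2 at -3.76, whose probe was well above background in 1 tumour only, and Selp (1.01) and Ackr1 (2.16) are the 2 red genes.

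Markers of neighbouring cell types moved in several directions. Of all tested probes 13.0% were called lower and 9.92% higher, 26.6% were lower by the adjusted p alone, and 21.0% had every tumour below every lung. Of 11 pericyte and smooth muscle markers, 3 were called lower and 1 higher, Rgs5 at 2.33, with a median of -0.60. By the adjusted p alone 7 of the 11 were lower and 1 higher, and for 5 every tumour lay below every lung. The mean level of this list was 11.32 to 11.62 in WT and 10.98 to 11.38 in SCC. Alveolar type 1 markers, of the epithelium that lies against capillaries, were called lower for 4 of 5 tested, and these 4 had a mean level of 15.32 to 15.53 in WT and 12.98 to 13.73 in SCC. The fifth, Aqp5, differed by 0.64 (adjusted p = 0.023 by limma), short of 2-fold, and has no value on WT replicate 1. All 4 mesothelial markers and 5 of 6 cardiac muscle markers were called lower, although Wt1, Upk3b and Lrrn4 of the mesothelial list were well above background on 1, 3 and 4 tumour arrays. Mean levels of the mesothelial list were 10.43 to 10.97 in WT and 4.61 to 6.73 in SCC, and those of the cardiac list 9.41 to 12.98 and 7.12 to 9.32. Of 6 leukocyte markers 0 were called lower and 2 higher, and of 5 macrophage markers 0 lower and 1 higher. By the adjusted p alone 2 leukocyte markers were lower, Coro1a (-0.95) and Ptprc (-0.55), and 3 higher. In the macrophage list 2 were lower in that way, Marco (-0.75) and Csf1r (-0.50), and 2 higher, so neither list moved as a whole. The leukocyte list had a mean level of 12.39 to 12.73 in WT, 11.98 in SCC replicate 2 and 13.00 to 13.20 in the other 4 tumours. The macrophage list was at 12.35 to 12.90 in WT, 12.37 in SCC replicate 2 and 13.22 to 13.38 in the other 4 tumours. Platelet markers went both ways, with 2 of 6 called lower, Gp9 (-4.09) and Gp6 (well above background on 3 tumour arrays), and 1 higher, Ppbp (4.24), which read 10.67 in SCC replicate 2 and 17.21 to 17.46 in the other tumours. The mean level of this list was 8.26 to 9.15 in WT and 7.63 to 8.58 in SCC, and the count called lower was 1 without SCC replicate 2 and 3 without SCC replicate 5. Beside them the 4 reference endothelial genes had a mean level of 12.97 to 13.13 in WT and 11.02 to 11.75 in SCC. The part of these lists in the endothelial differences was not tested.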

How the data were processed

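Total RNA of 5 WT lungs and 5 SCC tumours was measured on 10 single-colour Agilent arrays, grouped by sample title. Per the file headers and labels, the authors read the scans with Agilent Feature Extraction 12, and the deposited scanner files hold a background-subtracted processed intensity per spot on a linear scale. A table of log2 values, likewise deposited by the authors, correlated with the values normalized here at no less than 0.9999 on every array and served to choose probes and as an alternative. The study's methods name quantile normalization, log2 and one-way analysis of variance, which was run as an alternative and equals a t-test between 2 groups.

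Control and outlier-flagged spots were dropped, repeated spots were averaged on the log2 scale and 41174 probes were quantile-normalized. Flags left 113 probes without a value on some array, and no probe was saturated. A probe was tested if well above background (at least 0.5 of its spots) on 4 of 5 arrays of a group (30374 probes). limma 3.58.1 in R 4.3.3 (lmFit, eBayes, two-sided, no covariates) gave differences and Benjamini-Hochberg adjusted p-values, and single values had an exact two-sided permutation test over 252 splits, with a smallest p of 0.00794. Accessions were paired with symbols through a RefSeq table (28223 probes). The fit was tested on simulated data.

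Every tested gene of the list is named with its difference. All arrays are given for Pecam1, Cdh5 and Vwf, for the largest and smallest difference of each role, for genes higher in SCC and for genes not called. Among other vascular genes the 6 largest called differences and those called higher are named. The genes and lists were chosen with earlier results of these data known. WT and SCC arrays of the same replicate number showed no marked shared deviations (correlations from -0.099 to 0.0093). This cannot settle whether the samples were paired. The number of arrays limits the precision. Alternatives covered normalization, background, filters, slide, replicate block, array weights, test, call rule, probe choice, reference and left-out arrays.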

Additional observations from a re-analysis of the deposited data

Results flagged for a closer look

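Among 134 sets of values of 4 or 5 arrays, 25 had a highest or lowest array whose gap to the nearest other array exceeded 0.71 of the range of the group (a higher limit held for sets of 4). Chance gives about 1 such set in 20 where sets are independent. These sets share the same 10 arrays, and the list means hold genes also counted singly, so the 25 cannot be set against that rate. SCC replicate 2 gave 13 of the 25, 9 as the highest array and 4 as the lowest.

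SCC replicate 2 was highest for Gja4 (gap 0.957 of the range, 4 arrays), Pecam1 (0.898), Tie1 (0.864), Tek (0.853), Car4 (0.788), Vwf (0.773) and Egfl7 (0.719), and for the mean level of the capillary list (0.726) and of the 4 reference genes (0.716). It was lowest for the vascular gene Ackr1 (0.755) and for the mean level of the squamous (0.881), macrophage (0.847) and leukocyte (0.84) lists. Tek read 11.35 in this array and at most 9.43 in the other tumours.

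SCC replicate 5 was highest for Gdf2 (0.858), for Cyyr1 (0.724) and for the percentage of probes above background (0.859). SCC replicate 3 was lowest for Slco2a1 (0.946). WT replicate 5 was lowest for Kdr (0.75), Fli1 (0.744), Aplnr (0.741) and the mean level of the capillary list (0.817). WT replicate 4 was lowest for Slco2a1 (0.727) and for the pericyte and smooth muscle list (0.775). WT replicate 1 was highest for Tek (0.889) and lowest for Bmx (0.8).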

How the results depend on the processing

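Members called lower numbered 28 to 37 in all settings run, members called higher were 0 in each, and the median difference ranged from -2.27 to -1.91. Leaving out each array gave 34 to 36 called lower, 0 to 0 higher, a median of -2.27 to -1.91 and 6385 to 8135 probes called, and 17 to 19 members below and 5 to 6 above the reference. Probes called numbered 6954, of which 3940 were lower and 3014 higher. They numbered 3969 with normexp background (2060 and 1909), 2989 with slide as a fixed block (1587 and 1402) and 14878 with the adjusted p alone (8088 and 6790). Scaling to the 75th percentile moved the median of all probes by 0.12 and gave 3080 lower and 3504 higher, with 35 members lower and their median at -2.02 against 0.03 for all probes. Members below the reference were 17, but 4 against Cdh5 alone and 7 with slide as a fixed block. Those above were 5, but 11 against Cdh5 alone. With the replicate number as a block, 35 members were called lower and 0 higher, the median was -2.07, 6571 probes were called, and 17 members lay below and 5 above the reference, so that no call on a member changed. Nos3, not called in any setting, ranged from -0.0744 to 0.113 when each array was left out, and was -0.0744 without WT replicate 4, -0.0284 without SCC replicate 3 and -0.000349 without SCC replicate 4.

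Of 934 values of single members under an alternative, 911 kept direction and call, 15 lost the call, 5 gained it and 3 changed sign. Normexp, computed on median spot and background signals because the files hold no mean signal, took Erg (-0.81), Aplnr and Bmx (-0.72) below 2-fold, and the cause was not tested. Slide as a fixed block took the adjusted p of Tek, Slco2a1, Erg, Aplnr, Bmx, Gja5 and Sox17 above the threshold (0.0537 to 0.213). Aplnr fell below 2-fold without WT replicate 1, WT replicate 3 or SCC replicate 1 (each -0.99). Cyyr1 was called with array weights (-1.80) and without SCC replicate 5, with at most 1 tumour well above background. Gene names from the scanner files were not run, since the files used hold no such column.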
